A study of Mus musculus with 6 samples.

Results

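Lysosomes are acidic organelles in which proteins, glycans and lipids from endocytosis and autophagy are broken down by hydrolases. A proton pump, the V-ATPase, acidifies them, and TFEB, TFE3 and MITF are transcription factors that bind a short E-box element in the promoters of many lysosomal genes. When the kinase complex mTORC1 is active at the lysosome it keeps TFEB out of the nucleus. Core-binding factor beta (CBFβ) is the non-DNA-binding partner of the RUNX transcription factors, and ILC2s, the innate lymphoid cells of group 2, answer IL-33 with type 2 cytokines and carry no antigen receptor.

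The genes described are 48 genes of lysosomal hydrolases, luminal and membrane proteins, proton pump subunits and TFEB-family factors, out of 25206 rows of an expression array table with 1 row per Entrez gene. The list was chosen by function after the comparison of knockout with control was known, in which Gpnmb and Grn stood among the largest differences. The differences of the 48 genes between the groups are therefore a description, without a p-value, and the number of them past the threshold supports nothing by itself. All 48 had a row. They comprise 10 membrane proteins, 3 luminal proteins that are not enzymes, 11 proteases, 8 glycosidases, 4 sulfatases, 3 lipid hydrolases, 7 proton pump genes and 2 TFEB-family factors.

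The arrays hold RNA of C57BL/6J mouse ILC2 lines kept in IL-2 and IL-33, each at 10 ng/ml. In the knockout group, 3 samples carried a lentiviral CRISPR construct with GFP and a guide against Cbfb. In the control group, 3 samples carried the same construct with a guide that has no target. GFP-positive cells of both groups were sorted 6 days after transduction, and the labels name no cloning step. They also leave unsaid whether replicates were cultured separately, so p-values measure a spread that may be technical. Values are log2 expression, with array medians of 3.57 to 3.63 and correlations between arrays of 0.9946 to 0.996 within groups and 0.988 to 0.9908 between them. Cbfb itself read 7.88, 7.69 and 7.91 in the knockout arrays, against 8.53, 8.73 and 8.70 in the control arrays, with no overlap (difference -0.83, SE 0.099, limma adjusted p = 0.00205). An edited transcript can still be detected, so the RNA level does not measure editing or CBFβ protein. Of 15 ILC2 markers 12 were analysed here, and 2 of these rose, 3 fell and 7 did not pass. This was 41.7% called, against 9.75% of all rows, which are not matched for expression level. Rora and Bcl11b, transcription factors of ILC2 development, rose by 2.22 and 1.14 on the log2 scale (limma adjusted p = 0.000562 and 0.000549), Rora against a control mean below 3.6, the median of all group means. The costimulatory receptor gene Icos, the IL-7 receptor gene Il7r and the cytokine gene Il5 differed by -0.78, -0.56 and -0.33 (limma adjusted p = 0.00122, 0.00966 and 0.0349), and Il5, named after its value was seen, lost its call in all 6 leave-one-out fits. The part of these changes in the lysosomal results was not tested. Gata3, the factor that defines the lineage, averaged 10.68 ± 0.026 in knockout and 10.58 ± 0.095 in control arrays (SD, n = 3 each), while Thy1 and Il17rb averaged below 3.6 in both groups.

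The promoters of 39 of the 48 genes were found in a RefSeq table of build GRCm38.p6, and 5 of them are printed to show the motifs that the text refers to. Gpnmb and Grn are shown for the largest differences, Lamp1 for its repeated E-boxes, and Glb1 and Sgsh as called genes with an E-box. Each sequence is the 250 bases before the start site, 5′ to 3′ on the gene's strand. The windows lie at chr6:49036268-49036517 (plus strand) for Gpnmb, chr11:102430257-102430506 (plus strand) for Grn, chr8:13158911-13159160 (plus strand) for Lamp1, chr9:114400828-114401077 (plus strand) for Glb1 and chr11:119355511-119355760 (minus strand) for Sgsh. Capitals mark CACGTG, the E-box core of the element that TFEB binds, and TGTGGT or its reverse complement ACCACA, the core of the RUNX site.
Gpnmb: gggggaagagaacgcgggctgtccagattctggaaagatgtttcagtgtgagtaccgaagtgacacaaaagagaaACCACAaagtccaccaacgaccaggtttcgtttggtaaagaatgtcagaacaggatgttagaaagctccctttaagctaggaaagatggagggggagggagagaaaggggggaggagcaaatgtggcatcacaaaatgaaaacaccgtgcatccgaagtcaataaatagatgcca
Grn: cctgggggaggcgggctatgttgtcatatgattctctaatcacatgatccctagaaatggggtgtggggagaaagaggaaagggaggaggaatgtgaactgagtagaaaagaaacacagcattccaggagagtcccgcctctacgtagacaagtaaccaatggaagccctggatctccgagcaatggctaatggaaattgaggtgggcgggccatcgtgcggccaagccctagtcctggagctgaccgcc
Lamp1: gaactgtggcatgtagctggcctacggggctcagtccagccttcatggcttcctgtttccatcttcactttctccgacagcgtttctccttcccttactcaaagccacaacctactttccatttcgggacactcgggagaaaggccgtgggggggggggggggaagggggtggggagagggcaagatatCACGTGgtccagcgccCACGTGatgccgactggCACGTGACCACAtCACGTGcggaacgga
Glb1: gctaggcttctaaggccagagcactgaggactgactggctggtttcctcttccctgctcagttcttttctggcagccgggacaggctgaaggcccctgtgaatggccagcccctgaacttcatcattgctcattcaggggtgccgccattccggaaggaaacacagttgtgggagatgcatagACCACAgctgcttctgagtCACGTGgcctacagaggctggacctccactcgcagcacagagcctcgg
Sgsh: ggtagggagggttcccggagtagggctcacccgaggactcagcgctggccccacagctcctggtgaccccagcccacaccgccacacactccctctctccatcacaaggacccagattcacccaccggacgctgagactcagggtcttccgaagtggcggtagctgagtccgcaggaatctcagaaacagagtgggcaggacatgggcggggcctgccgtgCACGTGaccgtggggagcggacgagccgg

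The E-box core CACGTG stood in the windows of 13 of 39 members (33.3%), against 1854 of 27025 genes in the whole promoter table (6.86%). The longer TCACGTG, which contains the core, stood in 11 of 39 members on either strand (28.2%), against 3.58% of all genes. Among the 17452 genes that also have an array row, as all members do, 7.79% held CACGTG and 4.31% TCACGTG. Lamp1 held 4 copies of the core, which begin 61, 45, 28 and 15 bases before its start. Glb1 held the core 48 bases and Sgsh 29 bases before the start, and the windows of Gpnmb and Grn held no CACGTG. Other E-box forms were not searched. The core occurred in 4 of 16 members that were called higher in the knockout and in 9 of 21 that were not called, as defined below, and in neither of the 2 called lower.

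The RUNX core TGTGGT was searched on both strands, and since ACCACA ends in the letters with which CACGTG begins, the motifs can share bases. It stood in 6 of 39 members (15.4%), against 15.9% of all genes, so its share among the members was close to that of promoters in general. All 6 were members called higher, namely Gpnmb, Lamp1, Psap, Ctsa, Hexa and Glb1 (37.5% of 16), and none of the 21 members that were not called held it. Psap and Ctsa have more than 1 start in the table, and each held the RUNX core before only 1 of them. A second RUNX-like form, TGCGGT, was found in 1 member, Atp6v0d1 (2.56%, against 5.84% of all genes). Among genes that also have an array row, 13.9% held TGTGGT and 6.79% TGCGGT. Lamp1, Glb1 and Ctsa held both CACGTG and TGTGGT, although in Ctsa, which has more than 1 start in the table, they stood before different starts. In Gpnmb the RUNX core begins 175 bases and in Glb1 67 bases before the start. These are matches of letters in 250 bases and not measured binding. No test was made of these shares, since the calls come from the comparison that was known when the genes were chosen.

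In Cbfb knockout cells some lysosomal genes had higher values, led by Gpnmb and Grn, and Ctss and Lipa had lower values. A gene is named called, and its change a rise or fall, where the moderated test of limma over all 25206 rows gave an adjusted p below 0.05. By that rule 19 of the 48 genes rose and 2 fell, where 5.51% of all rows were called higher and 4.24% lower, 9.75% in all. Knockout and control arrays were without overlap for 35 of the 48, of which 30 were higher in the knockout, and 27.5% of all rows had no overlap. Because this comparison chose the genes, nothing is read from these shares. Of the 48, 6 rose by at least 1 on the log2 scale and 1 fell by as much, against 0.639% and 0.472% of all rows. The median difference of the 48 genes was 0.24, and 38 of them were higher, while the median of all rows was -0.0067. In bulk RNA a change in the share of cells of a kind and a change per cell cannot be told apart.

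**Figure D1:**
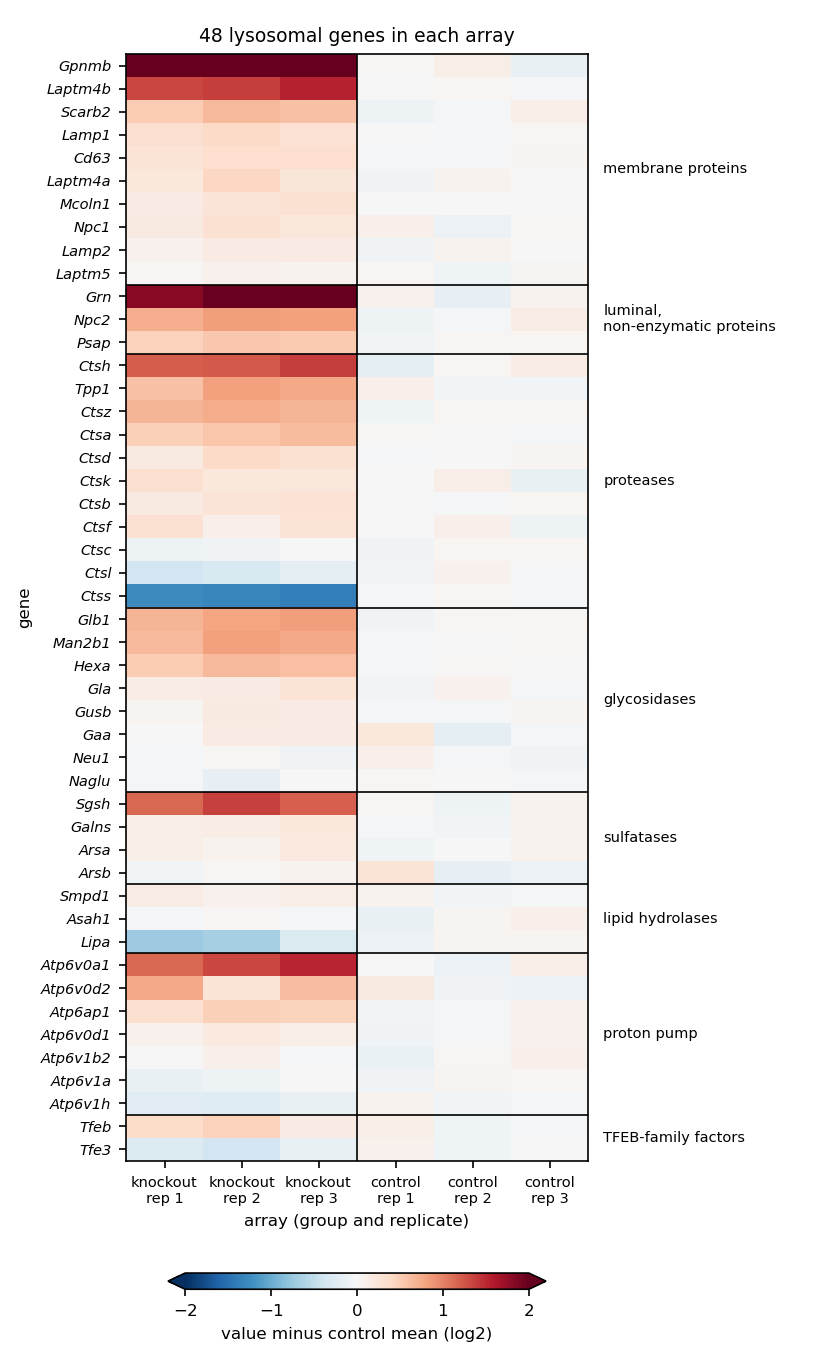
Each row is 1 of the 48 lysosomal genes, sorted within its class by difference, and each column is 1 array, with the 3 knockout arrays left of the 3 control arrays. Colour gives the array's value minus the control mean on the log2 scale, and colours saturate beyond 2. Gpnmb and Grn are the darkest red rows and Ctss the darkest blue one.

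Averaged over the 48 genes, knockout replicates 1, 2 and 3 lay 0.333, 0.394 and 0.425 above the control mean, and control replicates 1, 2 and 3 lay -0.0048, -0.0109 and 0.0156 from it. For the 19 genes that rose the knockout averages were 0.871, 0.964 and 1.0. The 19 were picked for higher knockout values, so averages above the control mean follow from the choice. Knockout replicate 1 was the lowest of the 3 knockout arrays in 16 of these 19 genes. The SD within the knockout group ranged from 0.0265 to 0.25 over the 48 genes, with a median of 0.0736, and that within the control group from 0.0115 to 0.244, with a median of 0.0768.

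Among the membrane proteins, 5 of 10 rose and none fell, and all 10 had a positive difference. Gpnmb, whose product is a glycoprotein in the membranes of lysosomes and melanosomes, read 6.83, 7.06 and 7.33 in the knockout arrays, against 3.91, 4.01 and 3.74 in the control arrays. The lowest knockout array lay far above the highest control array, and the difference of 3.19 (SE 0.14) was the third most positive of all rows. The control mean of 3.89 ± 0.14 was near 3.6, where differences can be understated by the array. Laptm4b, a late endosomal membrane protein that takes part in amino acid uptake and mTORC1 activation, read 8.07, 8.11 and 8.27 in knockout arrays, against 6.73, 6.77 and 6.69 in control arrays. It rose 2.68-fold with no overlap, by 1.42 on the log2 scale (SE 0.087).

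The relatives of Laptm4b did not share that difference in size. Laptm4a, a close relative, averaged 9.20 ± 0.11 in knockout and 8.91 ± 0.070 in control arrays (difference 0.29, 95% interval 0.075 to 0.50, not called). Laptm5, the leukocyte member that promotes lysosomal degradation of antigen receptors, averaged 11.74 ± 0.026 in knockout and 11.68 ± 0.078 in control arrays, with overlapping groups (interval -0.13 to 0.25). No test compared the relatives with each other, and the sources used here do not show whether their probes cross-react.

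Scarb2, the membrane receptor that carries glucocerebrosidase to the lysosome, read 8.33, 8.48 and 8.41 in knockout arrays, against 7.72, 7.80 and 7.96 in control arrays, a rise of 0.58 (SE 0.094). Lamp1, a main glycoprotein of the limiting membrane, read 9.64, 9.71 and 9.61 in knockout arrays, against 9.32, 9.29 and 9.35 in control arrays. Its rise was small, 0.33 on the log2 scale or 1.26-fold, although the groups did not overlap. The tetraspanin gene Cd63 rose by 0.32. The calls of Lamp1 and Cd63 were lost in all 6 leave-one-out fits, each without 1 array. The remaining genes were not called. Lamp2, which also serves chaperone-mediated autophagy, differed by 0.14, the cholesterol exporter gene Npc1 by 0.24 and the lysosomal calcium channel gene Mcoln1 by 0.24.

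The 3 luminal proteins that are not enzymes all rose. Grn encodes progranulin, which is secreted and also delivered to lysosomes, where it is cut into granulins. It read 10.01, 10.16 and 10.32 in the knockout arrays, against 8.28, 8.02 and 8.26 in the control arrays. The difference of 1.98 (SE 0.11) was 3.94-fold and ranked 11 from the top among all rows. Npc2, the soluble protein that hands cholesterol to NPC1, read 9.48, 9.59 and 9.57 in knockout arrays, against 8.65, 8.72 and 8.90 in control arrays, a rise of 0.79 (SE 0.094). Psap, the precursor of the saposins that help hydrolases reach sphingolipids, read 9.05, 9.12 and 9.11 in knockout arrays, against 8.53, 8.60 and 8.62 in control arrays, a rise of 0.51 (SE 0.078). No knockout array overlapped a control array for any of the 3 genes.

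**Figure D2:**
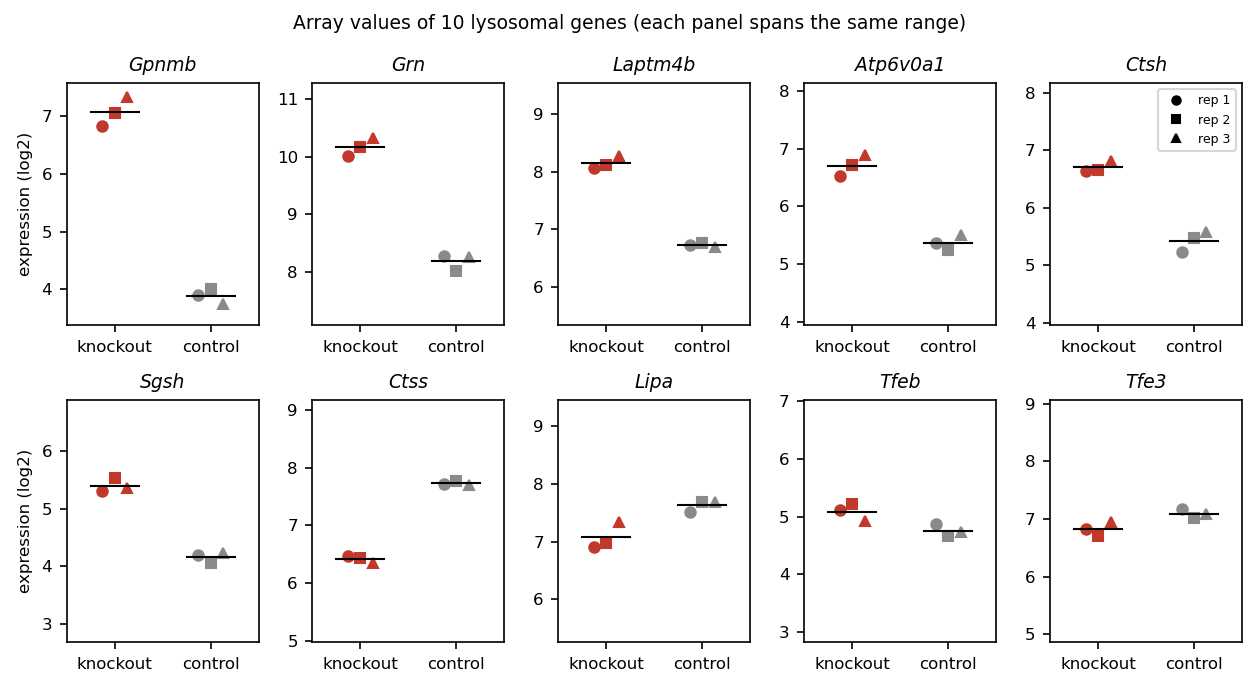
Log2 expression of 10 lysosomal genes in each array, with knockout left of control, a symbol per replicate and a line at the group mean of 3 arrays; every panel spans the same range of log2 units. The groups are far apart for Gpnmb and Grn, Ctss and Lipa are lower in the knockout, and Tfeb and Tfe3, not called, differ by 0.33 and -0.27.

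Proteases moved in both directions, with 4 of 11 higher, 1 lower and 6 not called. Ctsh, an aminopeptidase cathepsin, read 6.64, 6.65 and 6.81 in the knockout arrays, against 5.24, 5.47 and 5.58 in the control arrays, a rise of 1.27 (SE 0.11) or 2.41-fold. Ctss, the cathepsin that trims the MHC class II invariant chain in antigen-presenting cells, read 6.46, 6.43 and 6.34 in the knockout arrays, against 7.71, 7.77 and 7.70 in the control arrays. It fell by 1.32 on the log2 scale (SE 0.080), and its SDs of 0.062 in knockout and 0.038 in control arrays were the smallest among the 7 of the 48 genes called with a difference of at least 1. Counted from the most negative, its difference ranked 63 among all rows.

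Ctsz, a carboxypeptidase cathepsin, read 10.46, 10.53 and 10.46 in knockout arrays, against 9.70, 9.83 and 9.83 in control arrays (a rise of 0.70, SE 0.082). Tpp1, a tripeptidyl peptidase, read 10.25, 10.48 and 10.42 in knockout arrays, against 9.77, 9.61 and 9.62 in control arrays (a rise of 0.72, SE 0.096). Ctsa, the carboxypeptidase that protects β-galactosidase and neuraminidase in a complex, rose by 0.56. The exopeptidases among the listed cathepsins were thus not uniform, since Ctsc, the dipeptidyl peptidase that activates granzymes, averaged 10.46 ± 0.061 in knockout and 10.52 ± 0.058 in control arrays (difference -0.053, interval -0.24 to 0.13). Ctsb and Ctsd differed by 0.24 and 0.28, and Ctsl by -0.30 (interval -0.51 to -0.088). None of these genes was called, although their groups did not overlap. Ctsf (2.73 in knockout, 2.50 in control) and Ctsk, best known from osteoclasts (3.33 in knockout, 3.08 in control), averaged below 3.6 in both groups, where a difference can be understated.

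Of 8 glycosidases 3 rose and 5 were not called. Glb1, which encodes β-galactosidase, read 8.65, 8.76 and 8.81 in knockout arrays, against 7.91, 8.0 and 8.02 in control arrays, a rise of 0.76 (SE 0.085). Man2b1, the lysosomal α-mannosidase, read 8.38, 8.54 and 8.48 in knockout arrays, against 7.69, 7.74 and 7.75 in control arrays, a rise of 0.74 (SE 0.082). Hexa, the α subunit of β-hexosaminidase, rose by 0.58. Ctsa, Glb1 and Neu1 encode proteins of 1 complex, of which Ctsa and Glb1 rose. Neu1, the sialidase of that complex, averaged 6.59 ± 0.046 in knockout and 6.61 ± 0.094 in control arrays, with overlapping groups (interval of the difference -0.22 to 0.17). Gla, Gusb, Gaa and Naglu, which cleave α-galactosides, glucuronides, glycogen and heparan sulfate, differed by 0.19, 0.13, 0.11 and -0.063.

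Among the sulfatases Sgsh rose and the other 3 were not called. Sgsh, which removes sulfate from heparan sulfate, read 5.31, 5.53 and 5.35 in knockout arrays, against 4.19, 4.06 and 4.23 in control arrays, a rise of 1.24 (SE 0.095) or 2.36-fold with no overlap. Naglu, which acts on the same glycan, overlapped between the groups. Galns, a galactosamine sulfatase, read 7.56, 7.58 and 7.64 in knockout arrays, against 7.41, 7.38 and 7.49 in control arrays (difference 0.17, interval -0.016 to 0.35). Arsa, arylsulfatase A, read 5.65, 5.58 and 5.71 in knockout arrays, against 5.43, 5.52 and 5.58 in control arrays, where the lowest knockout array met the highest control array. Arsb, arylsulfatase B, differed by 0.017 and had the widest spread of any of the 48 genes among control arrays.

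No lipid hydrolase rose. Lipa, the acid lipase that frees cholesterol and fatty acids from lipoprotein lipids, read 6.90, 6.97 and 7.34 in the knockout arrays, against 7.51, 7.69 and 7.69 in the control arrays. It fell by 0.56 on the log2 scale (SE 0.13) without overlap, with knockout replicate 3 nearest to the controls, and its call was lost in 5 of 6 leave-one-out fits. Smpd1, acid sphingomyelinase, read 6.57, 6.52 and 6.56 in knockout arrays, against 6.50, 6.38 and 6.40 in control arrays (difference 0.12, interval -0.059 to 0.31). Asah1, acid ceramidase, differed by -0.017 (interval -0.23 to 0.20).

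**Figure D3:**
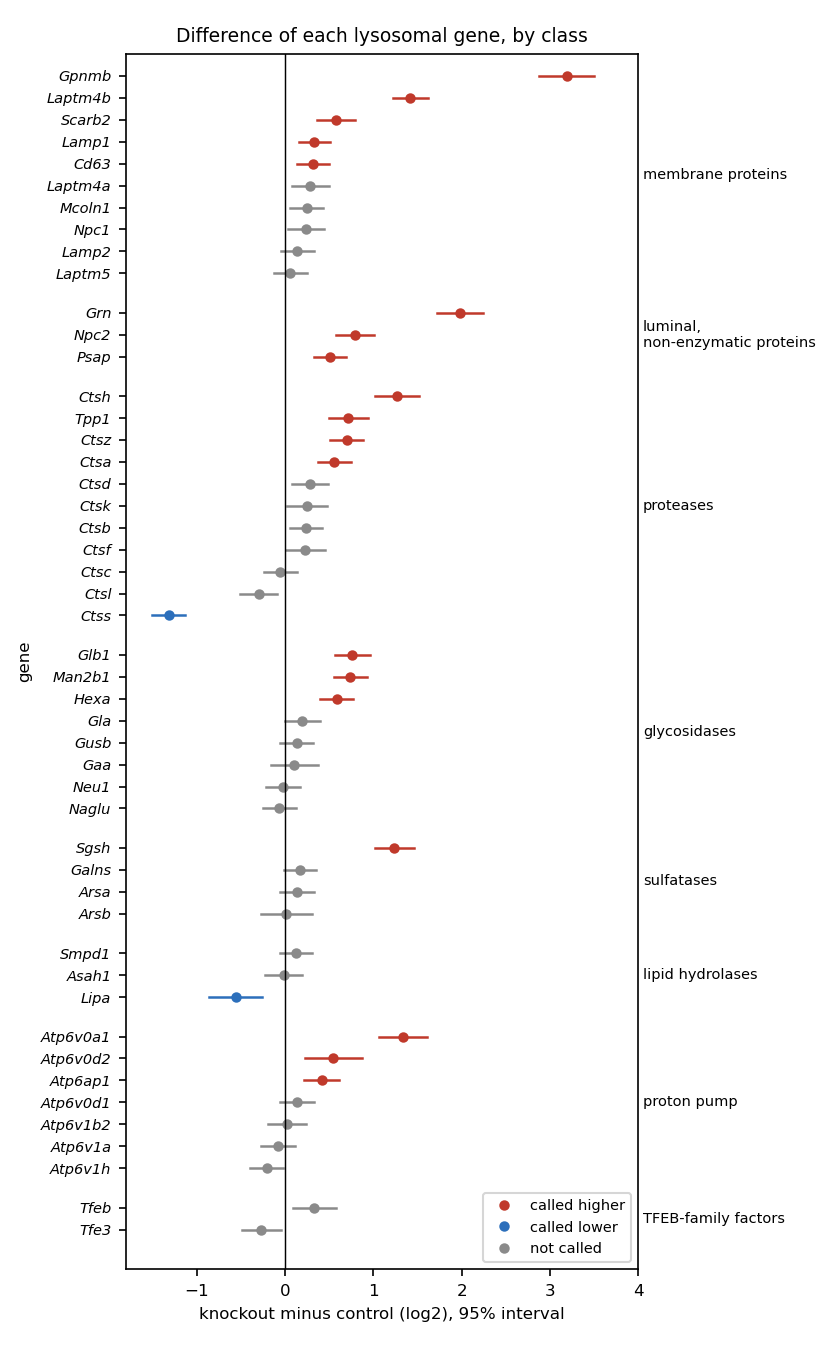
Difference of knockout minus control for each of the 48 genes on the log2 scale, with its 95% interval from limma, not adjusted for the number of genes. Red points were called higher, blue points lower and grey points were not called over all rows. Rises occur in 6 of the 8 classes, and the falls are those of Ctss and Lipa.

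The V-ATPase has a cytosolic V1 sector that hydrolyses ATP and a membrane V0 sector that carries protons, and its a and d subunits exist as isoforms. Of the 7 listed pump genes 3 rose, and the subunits of the V1 sector were not among them. Atp6v0a1, the a1 isoform of the V0 sector, read 6.52, 6.71 and 6.89 in the knockout arrays, against 5.36, 5.25 and 5.50 in the control arrays. It rose 2.53-fold with no overlap, by 1.34 on the log2 scale (SE 0.12). Atp6ap1, an accessory subunit, read 9.29, 9.45 and 9.41 in knockout arrays, against 8.91, 8.94 and 9.05 in control arrays, a rise of 0.42 (SE 0.087). Atp6v0d2, the d isoform known from osteoclasts and macrophages, read 4.16, 3.68 and 4.02 in knockout arrays, against 3.59, 3.34 and 3.29 in control arrays. Its rise of 0.55 (SE 0.14) is approximate, since the control mean of 3.41 lies under 3.6. Leaving out 1 array ended the call of Atp6v0d2 in 5 of 6 fits and that of Atp6ap1 in 4. Atp6v0d1, the widespread d isoform, differed by 0.14. The V1 genes Atp6v1a, Atp6v1b2 and Atp6v1h, which encode the A, B and H subunits, differed by -0.08, 0.02 and -0.21.

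The rest of the pump was taken from a list compiled by function, with earlier results of these data known. Of its 16 other subunit genes 14 were analysed here, and none was called in the limma fit. An unadjusted limma p under 0.05 was found for 3 of the 14, against 5780 of all 25206 rows. The differences of the 14 had a median of -0.047. The largest were those of Tcirg1, the a3 isoform (6.41 ± 0.060 in knockout and 6.10 ± 0.064 in control arrays, difference 0.30, limma adjusted p = 0.0571), and Atp6v1g2, a G subunit (0.30, limma adjusted p = 0.215). Tcirg1 passed in 3 of 12 alternative fits (adjusted p 0.0185 to 0.171). Among the a isoforms, Atp6v0a2 differed by -0.05 and Atp6v0a4, which averaged below 3.6 in both groups, by -0.073. Across members and other subunits, 3 of 21 measured pump genes were called, or 14.3%, against 9.75% of all rows, which are not matched for expression level.

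**Figure D4:**
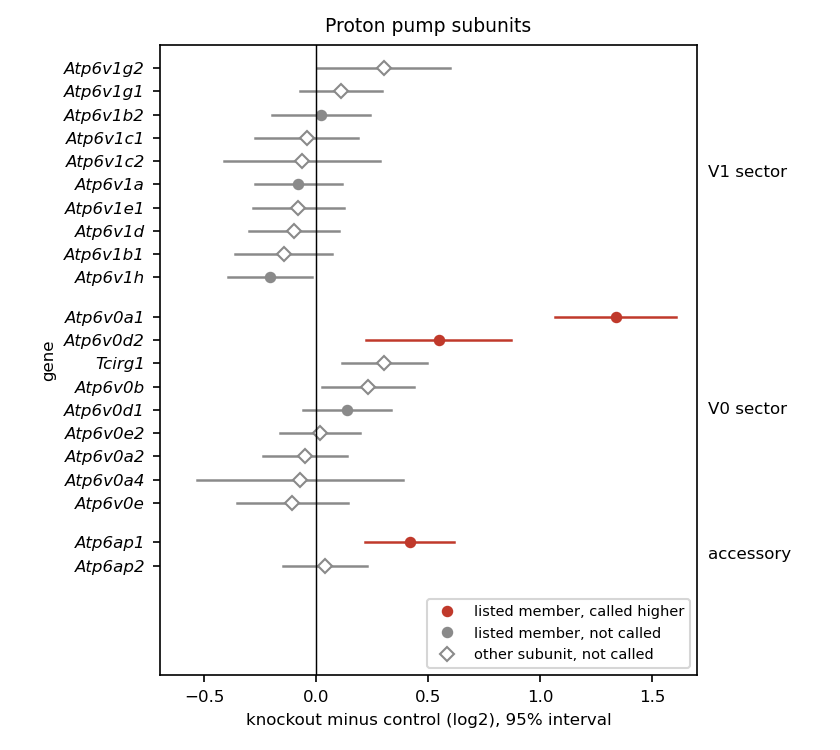
Difference of knockout minus control with its unadjusted 95% interval for 21 proton pump genes by sector. Circles are genes of the list of 48 and open diamonds the other subunits. Atp6v0a1 lies apart from the other subunits, whose points lie between -0.21 and 0.55.

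The TFEB-family factors themselves were not called, and their differences had opposite signs, with no overlap between groups for either. Tfeb read 5.12, 5.22 and 4.92 in the knockout arrays, against 4.87, 4.66 and 4.73 in the control arrays (difference 0.33, 95% interval 0.09 to 0.58). Tfe3 read 6.82, 6.71 and 6.95 in the knockout arrays, against 7.18, 7.01 and 7.09 in the control arrays (difference -0.27, interval -0.49 to -0.048). Tfeb was called in 1 of 12 alternative fits, the one that kept rows above the median level. Their activity depends on where the proteins are in the cell, which RNA values do not show. The other family members, named after their values were seen, were Mitf, with overlapping values of 4.35, 4.42 and 3.72 in knockout arrays and 4.23, 3.97 and 4.15 in control arrays (limma adjusted p = 0.924), and Tfec, which averaged below 3.6 in both groups.

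Lysosomal genes outside the 48 were taken from 4 lists by function, also with earlier results known, and 88 of 95 were analysed here. Of the 88, 16 rose, 2 fell and 70 did not pass, so 20.5% were called where 9.75% of all rows were. These shares are not matched for expression level. Only 8 of the 88 genes and 2 of the 48 averaged below 3.6 in both groups, against 12291 of all 25206 rows. In the fit of rows above the median level alone, 3551 rows were called, and 24 of the 88 genes rose and 4 fell. That fit called more rows than the 2457 of the main fit, although it held fewer rows. The 9.75% is therefore a low comparison for genes of this level, and no share matched for level was computed. In the main fit the median difference of the 88 genes was 0.097, and 55 of 88 were higher. Knockout replicates 1, 2 and 3 lay on average 0.111, 0.184 and 0.199 above the control mean of these 88 genes, and control replicates 1, 2 and 3 lay -0.0233, 0.0096 and 0.0135 from it. No set test was made, and these arrays are the same as for the 48 genes.

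Other lysosomal hydrolases held 7 of the rises among 24 measured. Lgmn, the asparaginyl endopeptidase that processes cathepsins, read 10.75, 10.73 and 10.74 in the knockout arrays, against 9.67, 9.72 and 9.76 in the control arrays. It rose by 1.02 (SE 0.077, limma adjusted p = 0.000277), and its knockout arrays were nearly equal (SD 0.010, n = 3). Acp2, lysosomal acid phosphatase, rose by 0.96 (limma adjusted p = 0.000875) and Dpp7, a dipeptidyl peptidase, by 0.74 (limma adjusted p = 0.00224). Gm2a, the cofactor with which β-hexosaminidase degrades GM2 ganglioside, averaged 10.77 ± 0.021 in knockout and 9.99 ± 0.12 in control arrays, a rise of 0.77 (limma adjusted p = 0.00173). The other 3 rises lay between 0.52 and 1.01. The 1 fall was that of Acp5, an acid phosphatase of osteoclasts and macrophages (-0.46, limma adjusted p = 0.0208), named after its value was seen.

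Among 29 other lysosomal membrane proteins 7 rose and none fell. Slc15a3, a transporter of histidine and peptides out of endosomes and lysosomes, read 6.11, 5.96 and 5.93 in the knockout arrays, against 4.13, 4.71 and 4.56 in the control arrays, a rise of 1.53 (SE 0.15, limma adjusted p = 0.00079). Its control arrays were more spread than its knockout arrays, and the groups did not overlap. Mcoln2, a relative of the calcium channel gene Mcoln1, rose by 0.61 (limma adjusted p = 0.0024). Cln3, a membrane protein lost in a human lysosomal storage disease, rose by 0.63 (limma adjusted p = 0.00454) and Ctns, the cystine exporter, by 0.64 (limma adjusted p = 0.00791). Of 21 genes for sorting to lysosomes 2 rose and 1 fell. Igf2r, a mannose 6-phosphate receptor that delivers hydrolases, rose by 0.87 (limma adjusted p = 0.00177). Gnptab, the enzyme subunit that puts the mannose 6-phosphate tag on hydrolases, fell by 0.57 on the log2 scale (limma adjusted p = 0.00717). Vps11, of the tethering complexes for late endosomes, rose by 0.38 (limma adjusted p = 0.0233), a call lost in all 6 leave-one-out fits. Sort1, the receptor sortilin that binds progranulin, named after its value was seen, averaged 4.47 ± 0.11 in knockout and 3.96 ± 0.30 in control arrays and did not pass (limma adjusted p = 0.0751).

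**Figure D5:**
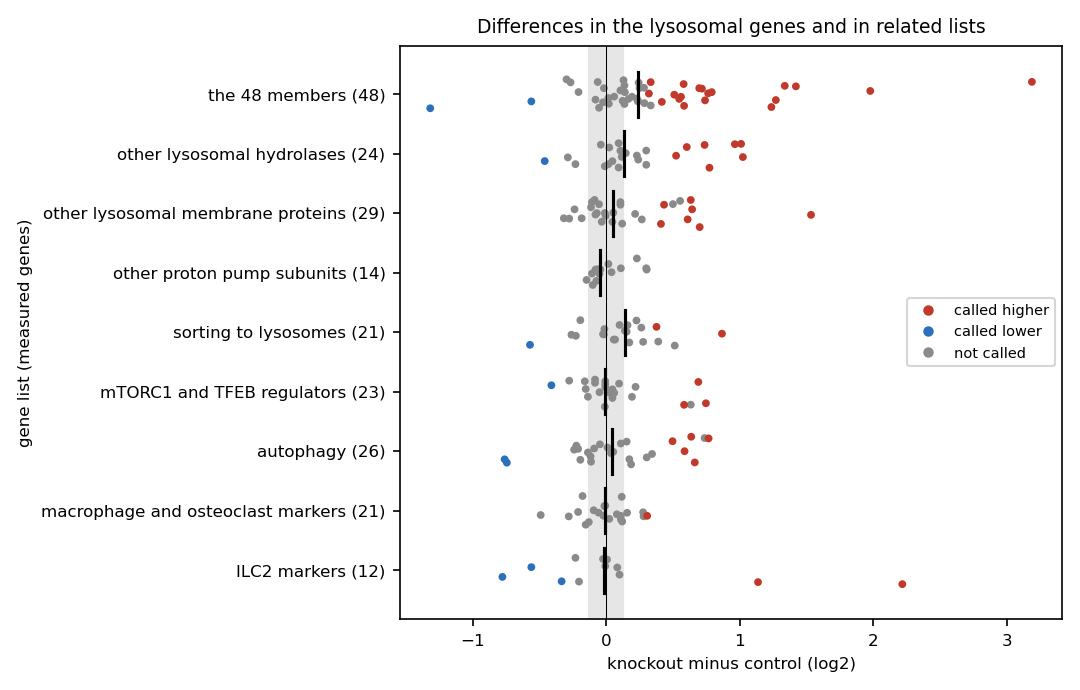
Difference of knockout minus control of each gene, by list, with the number of measured genes in brackets. Black bars mark medians, and the grey band spans the middle quartiles of all rows, -0.13 to 0.12. The 48 genes have a median of 0.24, and the other proton pump subunits lie close to 0.

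Regulators of mTORC1 and TFEB, which sit on the lysosome or act on its genes, had 3 rises and 1 fall among 23 measured. That was 17.4% called, against 9.75% of all rows, with a median difference of -0.0067. The 2 shares are not matched for expression level. Only 1 of the 23 averaged below 3.6 in both groups, against 12291 of all 25206 rows. Flcn, a regulator of the Rag GTPases that is needed to keep TFEB in the cytoplasm, averaged 7.35 ± 0.13 in knockout and 6.66 ± 0.062 in control arrays, a rise of 0.69 (limma adjusted p = 0.00379). Rptor, the substrate-binding subunit of mTORC1, rose by 0.58 (limma adjusted p = 0.00538), and Zkscan3, a zinc finger repressor of autophagy and lysosomal genes, by 0.75 (limma adjusted p = 0.00538). Lamtor3, a subunit of the Ragulator scaffold, fell by 0.41 on the log2 scale (limma adjusted p = 0.0207), and lost its call in 4 of 6 leave-one-out fits.

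Autophagy genes had 5 rises and 2 falls among 26 measured (26.9% called, against 9.75% of all rows), with a median difference of 0.045. None of the 26 averaged below 3.6 in both groups, so this comparison is not matched for expression level either. Ulk2, a kinase that starts autophagy, rose by 0.77 (limma adjusted p = 0.00297), and Calcoco1, a receptor for autophagy of the endoplasmic reticulum, by 0.66 (limma adjusted p = 0.0031). Gabarapl1, which is joined to the autophagosome membrane, fell by 0.76 on the log2 scale (limma adjusted p = 0.00235). Sqstm1, the cargo receptor that is itself degraded with its cargo, read 8.97, 8.89 and 8.88 in knockout arrays, against 9.45, 9.72 and 9.80 in control arrays, and fell by 0.74 (limma adjusted p = 0.00463).

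Because lysosomal genes are also abundant in macrophages and osteoclasts, 21 of 22 listed markers of those cells were read beside them, without Lyz2. Their summed log2 level lay between 62.53 and 64.49 in the knockout arrays, against 61.98 to 65.81 in the control arrays, and 14 of the 21 averaged below 3.6 in both groups. Of the 21 markers 10 had a positive and 11 a negative difference, with a median of -0.0067. Csf1r, Adgre1 and Mrc1, which define macrophages, were named after their values were seen. They averaged 2.71, 1.97 and 2.40 in knockout and 2.86, 2.15 and 2.46 in control arrays. Trem2 was the 1 marker called, with 4.11 ± 0.061 in knockout and 3.80 ± 0.040 in control arrays (limma adjusted p = 0.0498), and it lost the call in all 6 leave-one-out fits. Cd68, a macrophage-rich lysosomal protein also named after its value was seen, averaged 5.84 in knockout and 5.87 in control arrays (limma adjusted p = 0.933). The share of such cells in the samples was not tested.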

How the data were processed

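Total RNA, isolated with Trizol, was biotin-labelled for arrays with 1 channel, per the labels' protocols. The deposited table holds log2 expression values to 2 decimals, and RMA and limma 3.14.4 are named, per the submitters' processing notes, with no role or order. RMA makes the arrays' distributions equal, which would hide a shift of most genes, and compresses differences of dim probes. The log2 scale was read from the values. There are no detection calls, and genome build and probe sequences are not given in the sources used here.

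All 25206 rows were used without a filter. Of these 23185 have a symbol, matched by Entrez number to RefSeq (GRCm38.p6), and 2021 have none. The test was limma 3.58.1 in R 4.3.3, knockout minus control, two-sided, with Benjamini-Hochberg adjustment over all rows, a threshold of 0.05 and a prior of 4.1 degrees of freedom, checked on simulated data. The array number, 3 per group, limits the precision. Groups and replicate numbers come from the sample titles.

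The members and lists were chosen with earlier results of these data known. Array values are given for members called with a difference of at least 1, both TFEB-family factors and up to 2 more per class by adjusted p. Of each other list up to 4 called genes are named, or 2 where none was called. Acp5, Sort1, Mitf, Tfec, Il5, Gata3, Thy1, Il17rb, Csf1r, Adgre1, Mrc1, Cd68, Atp6v0a2 and Atp6v0a4 were named outside this rule, after their values were seen. Alternatives were a replicate block, leaving out each array, quantile normalisation again, median centring, a filter on dim rows, another prior, array weights and a stricter threshold. No scanner files were used, so background correction was not varied. Promoter windows were searched by letters alone.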

Additional observations from a re-analysis of the deposited data

How the results depend on the processing

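The counts of members called higher were within 1.5 times of 19 in every alternative, 15 to 16 with 1 array left out and 15 at an adjusted p under 0.01. Of the 21 called members 16 kept the call in all 12 alternative fits at 0.05, and the 5 that lost it in some were Lamp1, Cd63, Lipa, Atp6v0d2 and Atp6ap1. Of the 27 members not called 6 passed in 1 or more of these fits: Laptm4a in 3, Mcoln1, Ctsb, Ctsd and Ctsl in 2 each and Tfeb in 1, with the filter on dim rows, the trended and robust prior or, for Laptm4a, quantile normalisation again. The count of members called lower was 1 to 2 with 1 array left out and 1 at the stricter threshold. Among the other lysosomal genes 12 to 14 were called higher with 1 array left out. The number called lower there was 1 to 2 with 1 array left out, 1 at the stricter threshold, 4 with rows above the median level alone and 5 with a trended and robust prior, where the main count was 2; the cause was not tested. Over all rows 2457 were called, 1307 to 1837 with 1 array left out, which leaves fewer samples (1478 without knockout replicate 2, 1517 without knockout replicate 3, 1307 without control replicate 2 and 1565 without control replicate 3), and 966 at the stricter threshold. The trended and robust prior called 23 members higher and 3 lower, but also more rows in all, 3516 against 2457 in the main fit. Centring moved the median difference of all rows by 0.0067.

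With replicate number as a block, 17 members and 14 other lysosomal genes were called higher, 2 and 2 lower, and 1745 rows in all. Deviations from the group means correlated at 0.025, 0.007 and 0.054 between same-numbered arrays, and at -0.065 to 0.044 between the others. Knockout replicates 1 and 3 correlated best with the control of the same number, and knockout replicate 2 with control replicate 1 (0.044). With 3 arrays per group, these values cannot decide whether the numbers pair the samples.

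Signs changed for 4 members near 0 and for 7 other named genes, none of them called in any fit. With 1 array left out, Neu1 ranged from -0.06 to 0.03, Arsb from -0.0683 to 0.1567, Asah1 from -0.0933 to 0.0317, Atp6v1b2 from -0.0467 to 0.0733, Mitf from -0.0817 to 0.2683, Thy1 from -0.0617 to 0.0483, Il17rb from -0.0817 to 0.0883, Mrc1 from -0.13 to 0.0083, Cd68 from -0.1583 to 0.09 and Atp6v0a4 from -0.33 to 0.08. Neu1 was 0.0022 with array weights, and Asah1 was 0.0044 and Atp6v0a2 0.0014 after quantile normalisation again; the cause was not tested. Differences of genes under 3.6, the median of all group means, are limited by signal near background.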
